A study of Homo sapiens with 43 samples.

Results

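The libraries described here are the 7 V5-only libraries of an eCLIP study. All samples are HEK293T, a line derived from human embryonic kidney. The 7 were chosen by title, as all samples named V5-only with a gel range, and are 7 of 43 samples and 7 of the 25 with peak lists. eCLIP (enhanced crosslinking and immunoprecipitation) maps RNA bound to a protein: cells are crosslinked with ultraviolet light, RNA is trimmed with RNase I, complexes are immunoprecipitated and run on a gel, and RNA from a cut-out mass range is sequenced. The study set RNA-binding proteins (RBPs) tagged at their own genes by CRISPR/Cas9 beside wild-type cells, and the V5-only libraries name the V5 antibody without an RBP. Whether these cells carried a tag is not stated in the labels, so "background" is used here in that sense only.

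Each V5-only library was cut from a gel range of 75 kDa, with lower bounds of 25, 50, 75, 100, 125, 150 and 175 kDa. Neighbouring ranges shared 50 kDa of the gel, ranges 2 steps apart shared 25 kDa, and ranges 3 or more steps apart shared none. All 7 used the same lot of the same anti-V5 antibody (Bethyl), and each was compared by the authors with its size-matched input. The labels give 1 input per range for both tag antibodies, so the V5-only and FLAG-only folds of a range rest on an input labelled without an antibody. There was 1 library per range, and nothing in the labels says that the 7 came from separate cultures. A p-value over them therefore only ranks the observed arrangement of single libraries.

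An antibody against an epitope tag can recover RNA when no tagged RBP is named, through proteins it binds weakly, through RNA that sticks to beads or tubes, and through complexes that survive the washes. In such gels the position of a complex depends on the mass of the crosslinked protein plus that of its RNA, so a background that comes with particular proteins can change along the gel.

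A peak is a stretch of genome, on 1 strand, where the authors called a pile of reads. Each peak carried the authors' log2 fold over input and the −log10 of its p-value. Peaks with both values at 3 or more, which is at least 8-fold over input, are called significant below. The 7 lists held 417930 called peaks, from 48206 to 68969 per library, and 13125 of them were significant, a background share of 3.14%. Of the significant peaks 9 overlapped a called peak of the same library on the opposite strand.

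The yield of enriched sites climbed and fell along the gel, with a single library far above the others. In order of the lower bound, the numbers of significant peaks were 383 at 25 kDa, 727 at 50 kDa, 1448 at 75 kDa, 1191 at 100 kDa, 6562 at 125 kDa, 1915 at 150 kDa and 899 at 175 kDa. As shares of called peaks these were 0.555%, 1.1%, 2.69%, 1.92%, 11.5%, 3.1% and 1.86%. The 95% Wilson intervals, which cover counting error over peaks only, ran from 0.503% to 0.614% in the lowest range and from 11.2% to 11.8% at 125 to 200 kDa.

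Ranges starting at 125, 150 or 175 kDa are called high below and ranges starting at 25, 50 or 75 kDa low, with 100 to 175 kDa in neither. The high ranges had 6562, 1915 and 899 significant peaks, against 383, 727 and 1448 in the low ranges. The high library at 175 to 250 kDa thus lay below the low library at 75 to 150 kDa, and the groups overlapped. On the log2 scale the means were 11.13 ± 1.45 in high and 9.53 ± 0.96 in low ranges (SD, n = 3 each), a difference of 1.60 or 3.04-fold. The split did not stand out among the 20 arrangements of these libraries (two-sided exact permutation p = 0.2, adjusted p = 0.267 over 8 tests). With 3 libraries against 3 this test cannot give a p under 0.1. Without the library at 125 to 200 kDa the difference was 0.83 on the log2 scale.

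**Figure D1:**
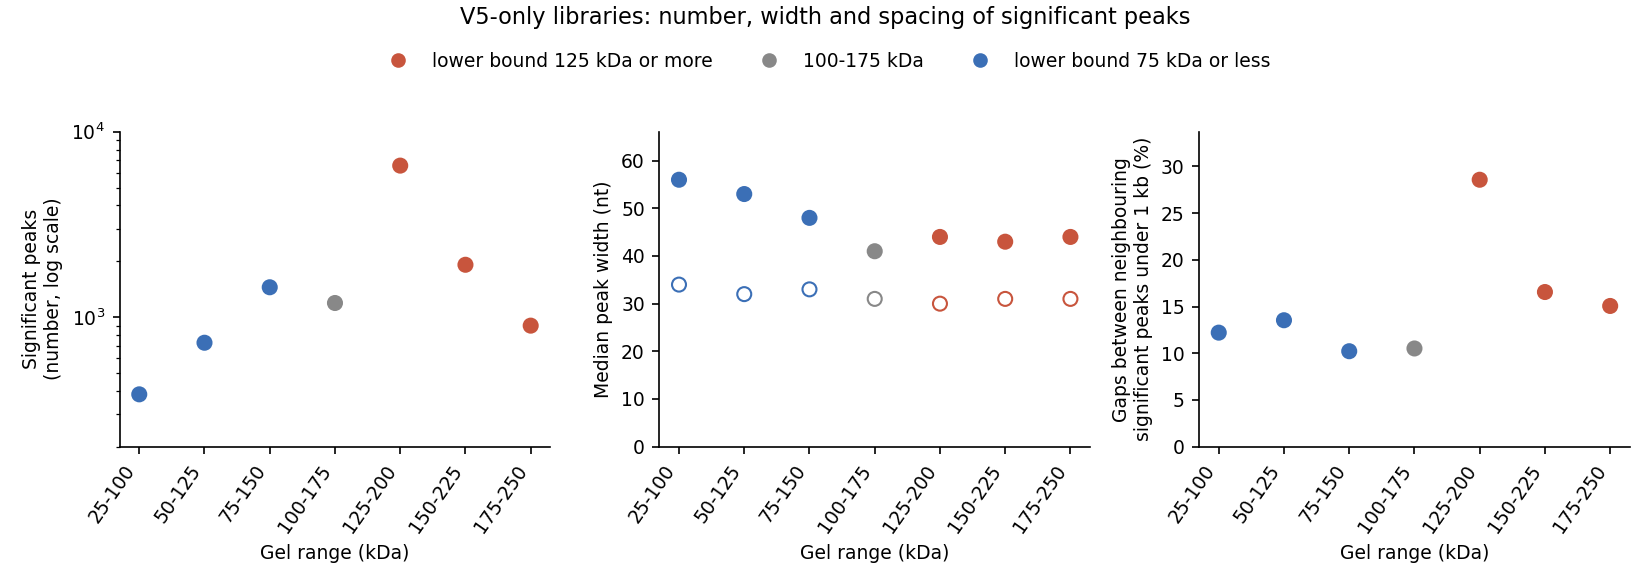
Number of significant peaks on a log axis (left), median peak width in nt (middle, filled for significant and open for all other called peaks) and share of gaps under 1 kb between successive significant peaks (right) for the 7 V5-only libraries, ordered by gel range in kDa. The number stands highest at 125 to 200 kDa, with 6562 peaks, and the filled points of width are at 48 nt or more only in the 3 lowest ranges.

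The commonest log2 fold of a library was 0.97 at 25 kDa, 1.25 at 50 kDa, 2.54 at 75 kDa, 2.04 at 100 kDa, 2.37 at 125 kDa, 1.83 at 150 kDa and 2.08 at 175 kDa. If that fold stood for 3 reads over an input of 1 read, which was not checked, reaching 8-fold over 1 input read took 13, 11, 5, 6, 5, 7 and 6 reads in the same order. The 2 lowest ranges, with the fewest significant peaks, would then have needed the most reads. The other ranges did not follow that order. Those at 75 and 125 kDa would each have needed 5 reads and had 1448 and 6562 significant peaks, and that at 175 kDa, at 6 reads, had 899. Depth itself was not tested. A threshold set at 2 above each library's own median log2 fold, chosen after the results had been seen, left 737, 601 and 391 peaks in the high ranges, against 276, 457 and 399 in the low ranges, a difference of 0.59 on the log2 scale (two-sided exact permutation p = 0.3, n = 3 each). The library at 125 to 200 kDa was still highest under it, by 737 against 601 in the next. Its median log2 fold over all called peaks, 2.37, was also the highest of the 7, where the next was 1.79.

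Background peaks had lower median widths in each high range than in each low range, though 3 libraries a side cannot pass the threshold. The median width of significant peaks was 44, 43 and 44 nt in the high ranges, against 56, 53 and 48 nt in the low ranges, and 41 nt in the range between. The groups did not overlap, with means of 43.7 ± 0.577 nt in high and 52.3 ± 4.04 nt in low ranges, a difference of −8.67 nt (SD, n = 3 each; exact permutation p = 0.1, two-sided, the smallest this design allows, adjusted p = 0.267). Called peaks that were not significant had medians of 30, 31 and 31 nt in high and 34, 32 and 33 nt in low ranges. At the centred threshold the medians were 41, 39 and 41 nt in high and 56, 49 and 43 nt in low ranges.

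Short distances between enriched sites made up a larger share in each high range than in each low range. Of the distances from each significant peak to the next on its strand, 28.6%, 16.6% and 15.1% were under 1 kb in the high ranges, against 12.2%, 13.5% and 10.2% in the low ranges, so that the groups did not overlap (difference of means 8.08 percentage points, two-sided exact permutation p = 0.1, adjusted p = 0.267, n = 3 each). The 2 longest lists had the highest shares, while among the other 5 the longest, of 1448 peaks, had the lowest share. At the centred threshold the difference was 0.46 points (exact permutation p = 0.8, n = 3 each). The part of list length was not tested. Runs of at least 5 significant peaks were chains in which each peak lay within 10 kb of the next. They held 37.6% of the significant peaks at 125 to 200 kDa, in 289 runs, and 10.9% at 150 to 225 kDa, in 31 runs. In the other 5 libraries such runs held between 2.42% and 6.67% of significant peaks.

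Mitochondrial RNA held significant peaks in the 5 upper ranges and in neither of the 2 lowest. The mitochondrial chromosome carries ribosomal RNAs, transfer RNAs and messenger RNAs of the respiratory chain. It held 27 significant peaks at 125 to 200 kDa, 6 at 150 to 225 kDa and 6 at 175 to 250 kDa, against 0 at 25 to 100 kDa, 0 at 50 to 125 kDa and 3 at 75 to 150 kDa. As shares of significant peaks these were 0.411%, 0.313% and 0.667% in the high ranges, against 0, 0 and 0.207% in the low ranges. A count of 0 allows shares of up to 0.783% at 25 to 100 kDa and 0.413% at 50 to 125 kDa. All 3 shares of the high ranges thus lay within the limit of the lowest library. At 50 to 125 kDa the limit also held 0.411% and 0.313%, but not 0.667%. Most of the mitochondrial peaks fell into 1 stretch, described below, so the contrast rests mainly on that stretch. The groups did not overlap (difference 0.395 percentage points, two-sided exact permutation p = 0.1, adjusted p = 0.267, n = 3 each). With a log2 fold of 2 or more the difference was 0.13 points (exact permutation p = 0.4, n = 3 each), and at the centred threshold 0.257 points (exact permutation p = 0.7, n = 3 each). Called mitochondrial peaks were as frequent throughout, between 0.377% and 0.473% of called peaks.

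The share of called peaks with more signal in the input than in the immunoprecipitation was 1.37%, 4.11% and 7.12% in the high ranges, against 10.3%, 5.79% and 2.34% in the low ranges. It was lowest in the middle of the gel and highest at its ends, and did not separate the groups (two-sided exact permutation p = 0.6, adjusted p = 0.6, n = 3 each).

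Which enriched sites recurred from one part of the gel to another was examined by same-strand overlap, with 1 shared nt counting as enough. Lists were first cut to the same length, the 383 significant peaks of highest fold in each library. Any pair of ranges then shared between 6.01% and 11.6% of peaks, as the mean of both directions. The 6 pairs of neighbours shared 7.7% for 25 and 50 kDa, 7.83% for 50 and 75 kDa, 11.6% for 75 and 100 kDa, 7.96% for 100 and 125 kDa, 8.75% for 125 and 150 kDa and 11.4% for 150 and 175 kDa. Their mean was 9.2%, against 8.59% for the 10 pairs that shared no gel, whose values ran from 6.4% to 10.7%. The difference of 0.614 percentage points did not stand out among the 5040 orders of the 7 libraries (one-sided exact permutation p = 0.199, adjusted p = 0.267, n = 7). The strongest sites of ranges at opposite ends of the gel, 25 and 175 kDa, were shared at 9.27%.

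The relation to gel distance depended on which peaks were compared. Among all called peaks, with no demand on enrichment, the shared percentage was lower at each greater distance, with means of 41.7% at 25 kDa, 39.8% at 50 kDa, 38.8% at 75 kDa, 36.8% at 100 kDa, 35.9% at 125 kDa and 30.8% at 150 kDa apart. Neighbours averaged 41.7% and pairs with no shared gel 36.8% (one-sided exact permutation p = 0.00119, n = 7; adjusted p = 0.0107 when counted as a ninth test). This was one of 8 other ways of drawing up or comparing the lists, and the adjusted p does not cover the choice among them. Under a stricter −log10 p of 5 or more, neighbours also stood out, with 22.3% against 19.0% (exact permutation p = 0.0262, n = 7), and with the centred threshold 11.3% against 9.67% (exact permutation p = 0.0274, n = 7). Over all alternatives the p-value ran from 0.00119 to 0.553 by the same exact permutation. The shortest list of called peaks came from the top of the gel and the longest from the bottom, and the part of list length in this gradient was not tested. The difference was 2.93 points without the top range and 3.69 points without the bottom range.

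**Figure D2:**
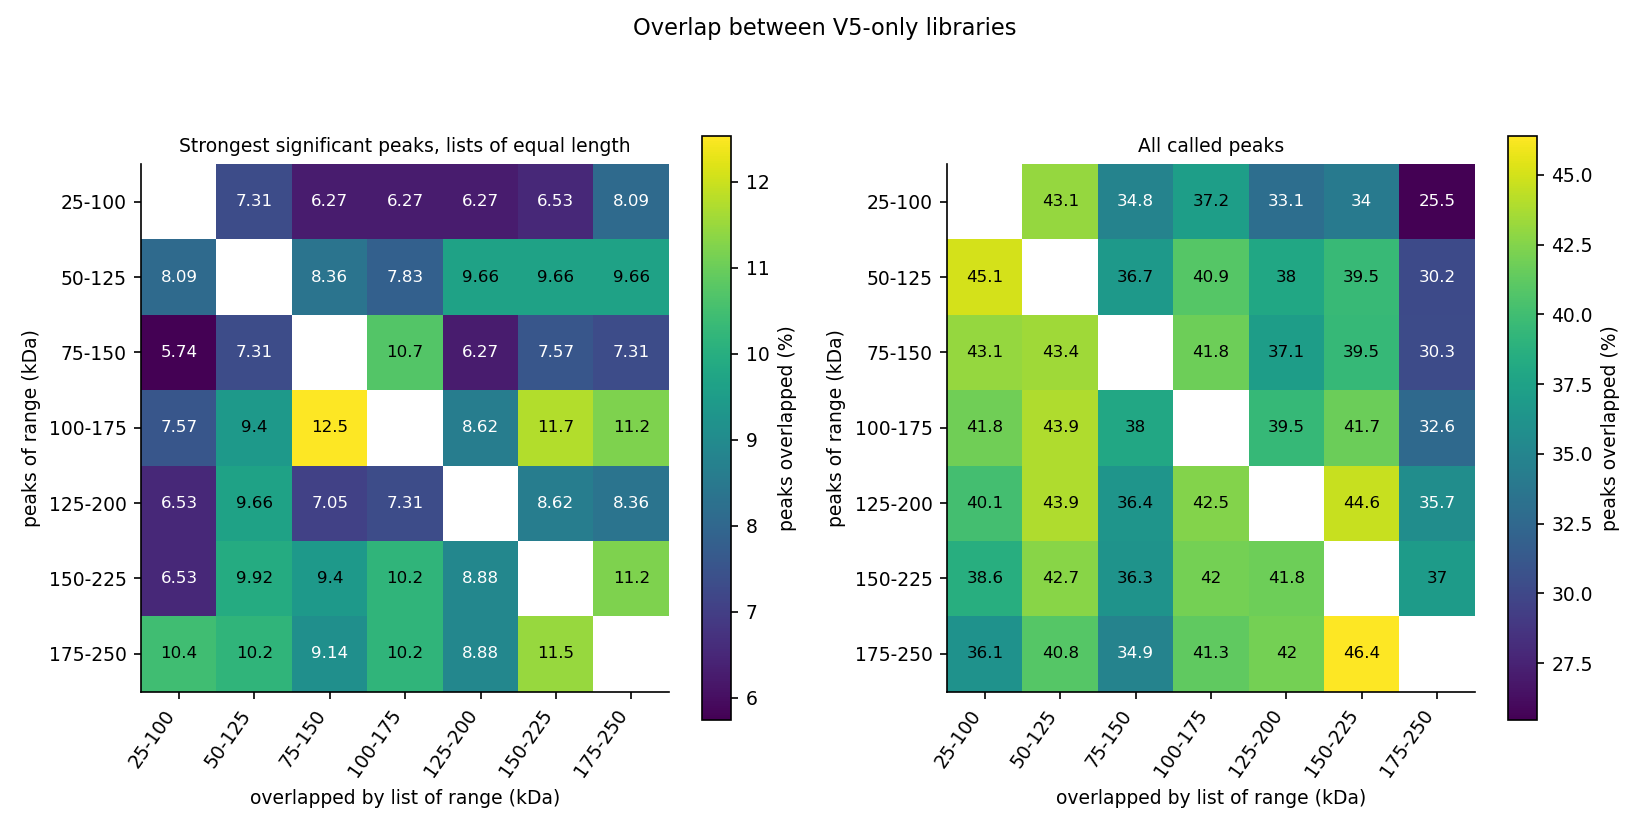
Percent of peaks of the row library overlapped by the column library, for the 383 strongest significant peaks of each V5-only library (left) and for all called peaks (right), with gel ranges in kDa on both axes and separate colour scales. Cells next to the diagonal are neighbouring ranges: on the right the lowest cell is 25-100 kDa overlapped by 175-250 kDa, at 25.5%, and on the left cells run from 5.74% to 12.5%.

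Sharing of the strongest sites was much the same within and between the high and low classes. Pairs within a class shared 8.38% and pairs between classes 8.33%, a difference of 0.051 points (one-sided exact permutation p = 0.6, adjusted p = 0.6, n = 6 libraries, smallest possible p = 0.1). Ranked by −log10 p in place of fold, the shares were 17.6% within and 11.9% between classes (exact permutation p = 0.1, n = 6), as large a difference as any of the 10 splits gave.

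With lists at full length, overlap followed the long list at 125 to 200 kDa. It overlapped 29.7% (27.7% to 31.7%, Wilson) of the significant peaks at 150 to 225 kDa and 20.7% (18.5% to 23.1%) of those at 100 to 175 kDa. The same list overlapped 37.2% of those at 175 to 250 kDa and 14.8% at 75 to 150 kDa. It shared no gel with 50 to 125 kDa or 25 to 100 kDa, yet overlapped 33.8% and 26.1% of their significant peaks. In the other direction 9.08% of its own peaks were overlapped by the range above and 3.92% by the range below. Between the top ranges, 19.9% of peaks at 175 to 250 kDa were overlapped by 150 to 225 kDa, and 9.56% in the other direction. Between the bottom ranges, 10.7% of peaks at 25 to 100 kDa were overlapped by 50 to 125 kDa, and 6.19% in the other direction.

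For significant sites of 5 of the 7 libraries, a called peak below the threshold was the commonest finding in the others. Averaged over the other 6 libraries, significant peaks at 175 to 250 kDa were significant again at 16.0%, called below the threshold at 52.6% and not called at 31.3%. At 125 to 200 kDa these shares were 4.59%, 61.0% and 34.4%, and at 25 to 100 kDa they were 14.2%, 52.3% and 33.6%. For the other 2 libraries it was no called peak, with averages of 50.3% not called and 41.7% called below the threshold at 75 to 150 kDa, and 48.7% and 40.5% at 100 to 175 kDa. At significant sites of one library, the median log2 fold of another was above its median elsewhere in 41 of 42 ordered pairs, by up to 0.81, and equal in the remaining pair, the sites of 125 to 200 kDa looked up at 75 to 150 kDa. At the sites of 175 to 250 kDa, for example, the library at 125 to 200 kDa had a median of 3.04, against 2.37 at its other peaks.

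Merged over the 7 libraries by overlap or contact on a strand, the significant peaks made 10403 regions. Of these 9007 were significant in 1 library, 1081 in exactly 2, 315 in at least 3 and 10 in all 7. The library at 125 to 200 kDa held 4988 of the regions found once and took part in 801 of the 1081 found in exactly 2. A region significant in 1 library was called in all 7 in 20.5% of cases, and in that library alone in 12.7%. Of the regions found once, 51.0% were significant in at least 1 of the 7 FLAG-only libraries. The share was 76.8% of those found in exactly 2, 84.8% in 3, 90.2% in 4, 92.3% in 5, 90.9% in 6 and 70.0% in all 7. The last 3 shares rest on 26, 11 and 10 regions. The matching share over all called peaks was not computed, so these shares have no background value beside them. Merging peaks of several libraries widens a region by construction. Regions found more than once were wider, with medians of 44 nt for those found once, 66 nt in exactly 2 and 90 nt in exactly 3. The medians were 92, 79, 58 and 100 nt in exactly 4, 5, 6 and 7. The inputs are labelled by range for both antibodies. The part of width and of the inputs in these shares was not tested.

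Regions confined to a class were far more numerous on the high side, where the lists were also longer. Of 104 regions significant in all 3 high libraries, 49 were significant in no low library. Of 16 regions significant in all 3 low libraries, 1 was significant in no high library. The part of list length in these counts was not tested. A further 11 were significant in all 6. Of the 49, 46 had a called peak in at least 1 low library and 36 in all 3 low libraries, so most had calls there that did not pass the threshold. The matching shares over other regions were not computed.

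The region with the strongest enrichment along the gel lay on chromosome 3 (plus strand, 160122385 to 160122417), in build hg19 as are all positions below. Its log2 folds were 6.39, 6.09, 6.60, 8.09, 7.59, 7.51 and 6.75 from the lowest to the highest range. It was the top region of 4 of the 7 libraries, and highest at 100 to 175 kDa. It was also significant in 2 of the 7 FLAG-only and 2 of the 11 RBP libraries. A region on chromosome 4 (minus strand, 13544062 to 13544102) had log2 folds of 3.64, 5.09, 5.30, 7.47, 8.0, 6.73 and 4.86. It stood highest at 125 to 200 kDa, where it was the top region, and was lower toward both ends of the gel.

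A region on chromosome 1 (plus strand, 237766448 to 237766530) had log2 folds of 4.30, 4.72, 4.90, 6.39, 6.69, 5.33 and 6.33, higher in each range from 100 kDa up than in any below. It was significant in all 7 FLAG-only libraries as well. A region on chromosome 19 (minus strand, 24187266 to 24187308) had the opposite order, with 5.82, 5.47, 5.05, 4.71, 5.03, 4.83 and 4.50. Its highest values were in the 3 lowest ranges, and it was significant in 6 of 7 FLAG-only and in 0 of 11 RBP libraries. These folds are the authors' own values per list and are set side by side only as a description, since each list has its own input and depth.

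A region on chromosome 2 (plus strand, 219824451 to 219824479) was the top region at 75 to 150 kDa and at 150 to 225 kDa. Its log2 folds were 2.45, 5.57, 7.59, 7.91, 6.64, 7.52 and 5.71. It was significant in every V5-only library except the lowest, where its log2 fold and its −log10 p of 2.83 both missed the threshold.

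**Figure D3:**
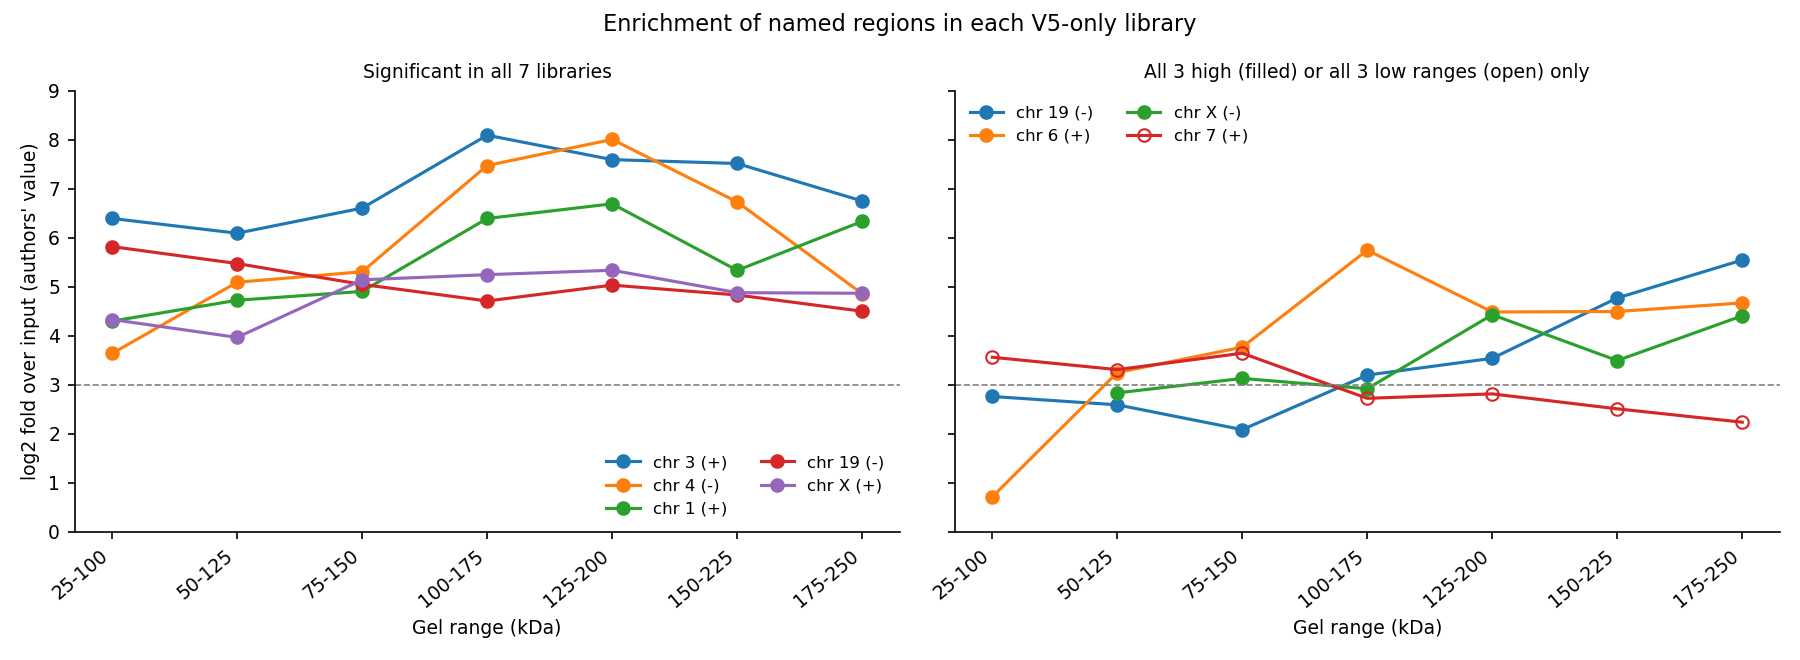
Authors' log2 fold over input in each V5-only library, by gel range in kDa, for 5 regions significant in all 7 libraries (left) and for regions significant in all 3 high and no low range (right, filled) or in all 3 low and no high range (right, open). The dashed line is the log2 fold threshold of 3, a gap in a line means no called peak, and points above the line can still miss the threshold on p.

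Of the regions significant in all 3 high and no low range, the strongest was on chromosome 19 (minus strand, 22877625 to 22877710). Its log2 folds were 3.54, 4.77 and 5.54 in the high ranges, against 2.76, 2.59 and 2.08 in the low ranges, and 3.20 between. A region on chromosome 6 (plus strand, 31958261 to 31958282) had 4.48, 4.49 and 4.67 in the high ranges. In the low ranges it had 0.71, 3.25 and 3.76. Its highest value, 5.74, was at 100 to 175 kDa, in neither class, where it was also significant. The values of 3.25 and 3.76 were above 3 but had −log10 p of 2.03 and 2.53. That region was significant in 8 of 11 RBP libraries and 6 of 7 FLAG-only libraries. A region on chromosome X (minus strand, 80370098 to 80370272) had 4.43, 3.49 and 4.41 in the high ranges, against no called peak, 2.83 and 3.13 in the low ranges.

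The region restricted to the low class lay on chromosome 7 (plus strand, 100482868 to 100482981). Its log2 folds were 2.81, 2.51 and 2.24 in the high ranges, against 3.56, 3.31 and 3.64 in the low ranges. The high ranges had −log10 p of 4.83 or more there, so their folds and not their p-values kept them below the threshold. All regions of both classes were defined by these values, which are given as a description.

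Regions significant in exactly 2 neighbouring libraries numbered 5 for 25 and 50 kDa, 19 for 50 and 75 kDa, 32 for 75 and 100 kDa, 104 for 100 and 125 kDa, 306 for 125 and 150 kDa and 35 for 150 and 175 kDa. For ranges at 50 and 125 kDa, which share no gel, there were 110. Among the neighbours, the pair of values with the highest mean was 5.59 and 4.37 at 125 and 150 kDa, on chromosome 3 (plus strand, 50114442 to 50114467). Its log2 folds in the 4 lower ranges were 1.20, 2.15, 1.96 and 2.78, and there was no called peak in the top range. On chromosome 9 (minus strand, 88655653 to 88655693) the log2 folds were 4.55 at 100 kDa and 5.24 at 125 kDa, and at most 2.03 in the other 5 ranges. On chromosome 9 (plus strand, 77113739 to 77113771) they were 4.86 at 75 kDa and 4.37 at 100 kDa, while the lowest range had −1.78. On chromosome 11 (plus strand, 9610598 to 9610641) they were 4.15 at 150 kDa and 4.67 at 175 kDa, with 3.78 at 125 kDa at a −log10 p of 2.69. In the low ranges, the strongest were a region on chromosome 20 (plus strand, 30371688 to 30371722), with 4.03 at 25 kDa and 3.66 at 50 kDa, and a region on chromosome 3 (minus strand, 14214372 to 14214416), with 4.12 at 50 kDa and 4.28 at 75 kDa.

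The run with the most significant V5-only peaks spanned 1174 nt on the plus strand of chromosome X, from 70766594 to 70767767. Runs here join significant peaks of any of the 7 libraries, each within 10 kb of the next on its strand. This one was singled out after the values were seen. From the lowest to the highest range it held 5, 8, 4, 13, 12, 12 and 16 significant peaks, 70 in all, the most of 4469 runs. Their median log2 folds were 3.21, 3.86, 4.57, 4.29, 4.58, 4.38 and 4.20, and they covered between 19.3% of the run at 25 to 100 kDa and 44.8% at 150 to 225 kDa. Within it lay a region significant in all 7 libraries, at 70767458 to 70767626, with log2 folds of 4.33, 3.96, 5.14, 5.24, 5.33, 4.88 and 4.86.

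That run was not significant in any other library of the series. The 7 V5-only libraries had 91 called peaks there with log2 folds up to 5.58. The 4 V5-tagged RBP libraries, made with the same antibody lot, had 14 called peaks with log2 folds up to 2.07, all in RBFOX2 and LIN28, and neither HNRNPC isoform library had a called peak. The 7 other RBP libraries had 13 called peaks with log2 folds up to 1.46, and the 7 FLAG-only libraries, which by their labels have inputs of the same ranges, had 21 with log2 folds up to 1.99. The lowest of the 7 V5-only maxima, 4.33, was above the highest value of the other 18 libraries, 2.07. No test was made, because the run was chosen from these values.

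**Figure D4:**
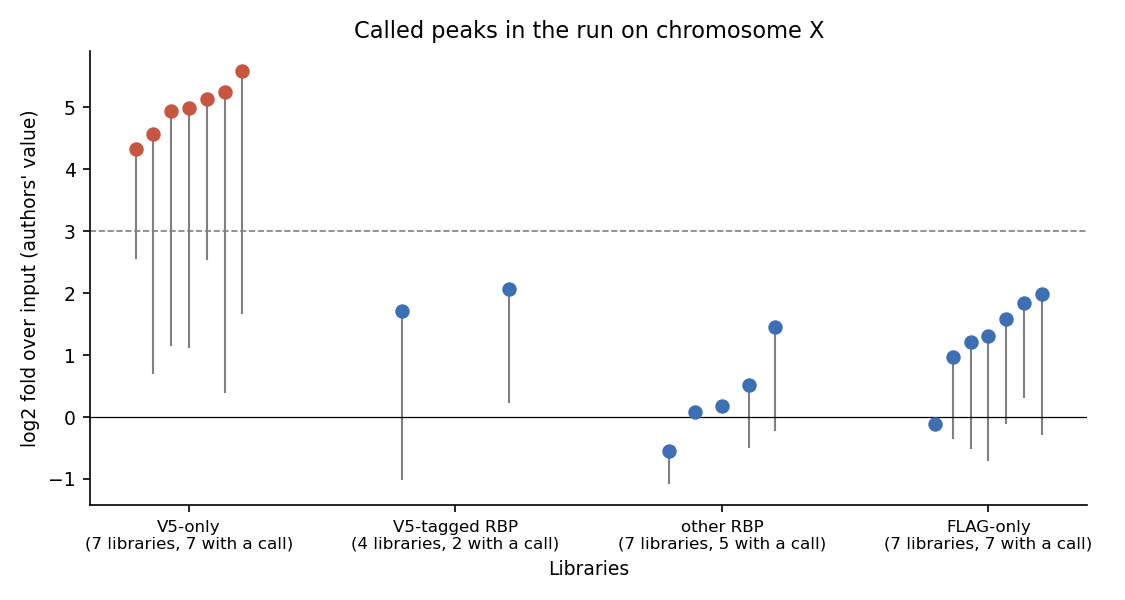
Authors' log2 fold over input of called peaks in the run of 1174 nt on chromosome X, with 1 line per library from its lowest to its highest peak and a point at the highest, for V5-only, V5-tagged RBP, other RBP and FLAG-only libraries. All 7 V5-only points lie above the dashed threshold of 3, between 4.33 and 5.58, and the points of the other groups reach at most 2.07.

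Each of the 9 next largest runs also held significant FLAG-only peaks and had its highest count at 125 to 200 kDa, the library with 6562 of all 13125 significant peaks. In 5 of the 9 its part of the run was smaller than its part of all significant peaks, such as 19 of 45 peaks on the minus strand of chromosome 14 from 21820547 to 21841528. The second largest, on the minus strand of chromosome 1 from 186283832 to 186331980, held 38 peaks at 125 to 200 kDa and between 0 and 6 in each other range. It also held significant peaks in 7 of 7 FLAG-only and 4 of 11 RBP libraries. On the plus strand of chromosome 12, from 104325388 to 104341560, there were 28 peaks at 125 to 200 kDa and at most 4 in any other range. Of the mitochondrial peaks 45, all but 2, fell into 1 stretch of 381 nt on the plus strand, from position 1273 to 1653. It held 27, 6 and 5 peaks in the high ranges, against 0, 0 and 3 in the low ranges, and was significant in 5 of 7 FLAG-only and 0 of 11 RBP libraries. Of the 4469 runs, 1786 held significant peaks of at least 2 V5-only libraries, while 1396 of the 10403 single regions, or 13.4%, did. A run joins peaks of any library within 10 kb, so it can be shared without holding a shared region. The part of this joining in the contrast was not tested.

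**Figure D5:**
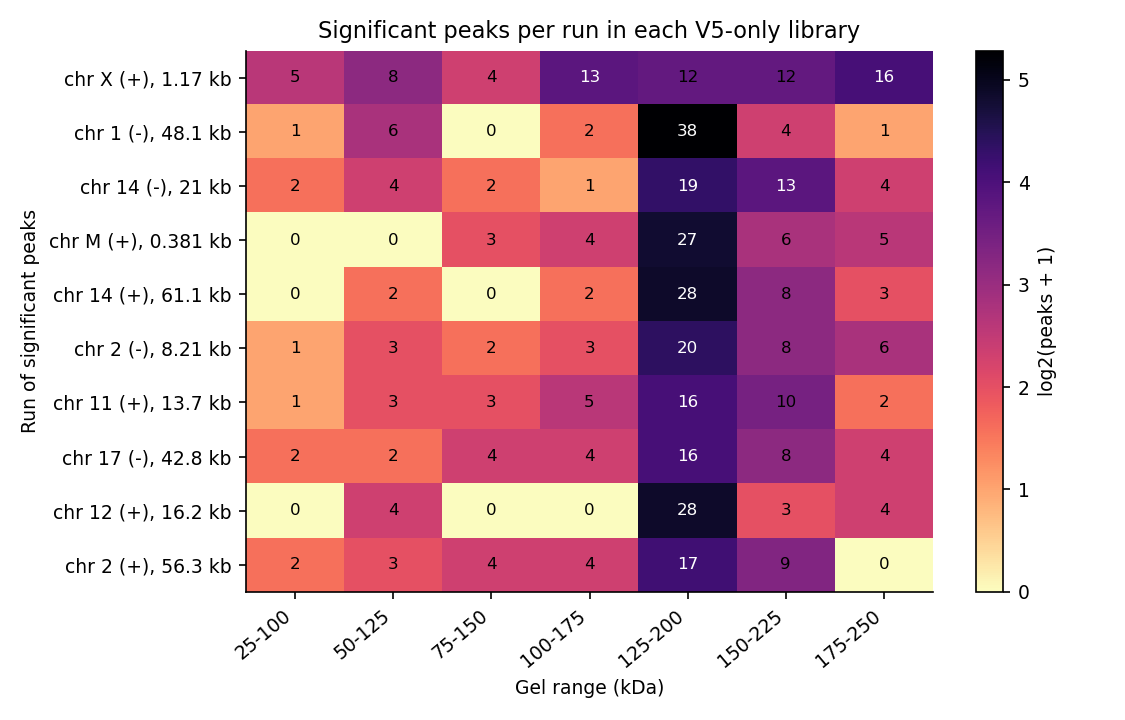
Number of significant peaks in each V5-only library, by gel range in kDa, for the 10 runs with the most peaks, labelled by chromosome, strand and length, with colour on a log2(peaks + 1) scale. The run on chromosome X is filled in every range, with 4 to 16 peaks, and the 9 others have their highest count at 125-200 kDa.

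By chromosome, X and 21 were the only chromosomes to hold a larger share of significant than of called peaks in all 7 V5-only libraries, Y not being examined. Chromosome 8 held a smaller share in all 7, at 0.42 to 0.98 times its share of called peaks. These chromosomes were picked by the same values, and no test was made. Chromosome X held 7.57%, 6.19%, 3.8%, 4.28%, 4.56%, 5.38% and 5.45% of significant peaks from the lowest to the highest range, and between 3.4% and 3.55% of called peaks. Without the run at 70766594 to 70767767 its shares were 6.35%, 5.15%, 3.53%, 3.23%, 4.38%, 4.78% and 3.74%, so that at 100 to 175 kDa it was below the 3.55% of called peaks. Chromosome 21 stood at 1.28 to 1.62 times its share of called peaks, on 6 to 98 significant peaks per library.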

How the data were processed

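Peak lists of the 7 V5-only libraries were analysed, with those of 7 FLAG-only and 11 RBP libraries for the regions and runs alone. The submitters' processing notes name build hg19 and cutadapt, STAR, GATK, Picard and SAMtools. Versions and the peak caller are not given in the sources used here. The deposited log2 fold compares each peak with the size-matched input, and the deposited −log10 p, by the authors, reaches at most 400. Read depth is unknown.

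Computed here with Python 3.11.15, numpy 2.4.6, pandas 2.3.3 and scipy 1.17.1: significance calls, overlaps, merged regions, runs and exact permutation tests, with Benjamini-Hochberg adjustment over 8 tests. Functions were tested on simulated lists. The members, tests and naming rule were chosen with earlier results of these data known. Named were 5 regions recurring most, up to 3 per class of ranges, the top region of each library and the top region shared by each pair of neighbours. Runs and the centred threshold were added after seeing the data. No gene annotation of hg19 was used here, so regions are given by position, and neither transcript classes nor base composition were tested. No read sequences are given.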

Additional observations from a re-analysis of the deposited data

Results flagged for a closer look

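In 5 of 23 sets of 7 V5-only values, 1 library lay far from the others. Chance gives about 1 in 20 for sets not chosen by their values. Many of the sets were log2 folds of regions named by the size of these same values, so that rate does not hold for them. The number of significant peaks was examined as it stands and not on the log2 scale. The library at 125 to 200 kDa accounted for 4 of them, which are not independent. Its significant peaks numbered 6562, and those of the next library 1915. The share of its called peaks that were significant was 11.5%, where the next had 3.1%. Of its gaps between significant peaks 28.6% were under 1 kb, where the next had 16.6%, and 37.6% of its significant peaks lay in runs of at least 5, where the next had 10.9%. The fifth was the region on chromosome 2 at 219824451 to 219824479, whose log2 fold of 2.45 at 25 to 100 kDa lay below the next value of 5.57.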

How the results depend on the processing

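Of 109 recomputed values, 95 were classed as unchanged. For tests this meant the same direction and the same side of the p-value threshold. Comparisons of high with low ranges, whose smallest possible p is 0.1, could not change side, so only their direction could change. Counts of regions have no p-value or direction and were judged by size alone. With a −log10 p of at least 5, neighbours exceeded pairs without shared gel by 3.33 points, with all called peaks by 4.84 and with the centred threshold by 1.65, each past the threshold. Leaving out 1 library gave −0.115 to 1.85 points, the negative value without 25 to 100 kDa, and 2.93 to 5.79 for all called peaks. For sharing within classes it gave −0.816 to 1.09 points, with −0.479 without 125 to 200 kDa, −0.816 without 150 to 225 kDa and −0.348 without 175 to 250 kDa. For negative folds it gave −3.87 to 0.134 points, the positive value without 25 to 100 kDa. Regions significant in at least 2 libraries, 1396, numbered 771 with a −log10 p of at least 5, 7377 with a log2 fold of at least 2, 178 with the centred threshold and 584 to 1318 without 1 library, the lowest without 125 to 200 kDa. Regions in every library, 10, numbered 118 with a log2 fold of at least 2 and 10 to 16 without 1 library, the highest without 25 to 100 kDa. The difference in yield, 1.60 on the log2 scale, ranged from 0.83 to 2.26 without 1 library, that in the share of significant peaks from 1.03 to 5.85 points, that in width from −10.8 to −6.83 nt, that in gaps from 3.82 to 10.6 points and that in mitochondrial peaks from 0.293 to 0.47 points. Over all alternatives the last ran from 0.13 points with a log2 fold of at least 2 to 0.716 under the stricter −log10 p, and the groups overlapped under the looser fold and the centred threshold. The causes of these changes were not tested. No paired analysis was possible because each range had 1 library. Depth in reads is unknown, so a site missing from a list may be absent or too thinly covered.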
